A study of Homo sapiens with 4 samples.

Results

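The 50 genes described here encode the machinery of macroautophagy, the mTORC1 growth kinase and its regulators, and proteins of the lysosome. They were chosen by name from 19775 genes on the array, and every probe set whose only annotated gene symbol is one of the 50 was taken, which gave 123 probe sets. All 50 genes had a probe set, and 32 of them had more than 1. Expression was read on 4 oligonucleotide arrays hybridised with amplified RNA, 1 array for each line and condition: MyLa with IL-32γ, MyLa control, HH with IL-32γ and HH control. MyLa is a cell line of mycosis fungoides and HH a line of cutaneous T cell lymphoma. Both stood for 40 hours in medium with 0.1% serum, which the controls share, and the treated cultures also received IL-32γ, an isoform of the cytokine interleukin-32, at 5 ng/ml. Each group is a single array of a single line, so IL-32γ against control within a line has neither replicate nor test. Precision is limited throughout by there being only 4 arrays.

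Macroautophagy encloses cytoplasm in a double membrane, the autophagosome, which then fuses with the lysosome, where acid hydrolases digest its contents. The kinase mTORC1, held at the lysosome surface by Rag GTPases when amino acids are plentiful, restrains this process by phosphorylating the ULK kinases and the transcription factors TFEB and TFE3. When mTORC1 is inactive these factors enter the nucleus and raise the transcription of lysosome and autophagy genes through an E-box with the core CACGTG. T cells depend on autophagy for survival and on lysosomal proteases for processing of granule enzymes.

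Values are log2 expression values as deposited, and a gene counts as measured on an array where its value is 5 or more. Between 42.9% and 43.3% of the 54675 probe sets reached 5, depending on the array. Of the 123 probe sets of these genes, 107 reached 5 on at least 1 array and 81 on all 4. A gene is represented by its brightest probe set on average, and by it 41 genes were measured on all 4 arrays, 45 on at least 1 MyLa array and 45 on at least 1 HH array. MITF, the melanocyte and mast cell relative of TFEB, stayed between 2.51 and 2.54, and the protease gene CTSL read 2.13 on every array, so these 2 genes were not measured. The T cell markers CD3D, CD3G, CD247 and CD2 were measured on all 4 arrays, CD3E, CD4 and CD5 on both HH arrays alone, and CD7, CD28 and LCK on none. In RNA of a whole culture, fewer cells with a transcript and less of it per cell cannot be told apart.

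**Figure D1:**
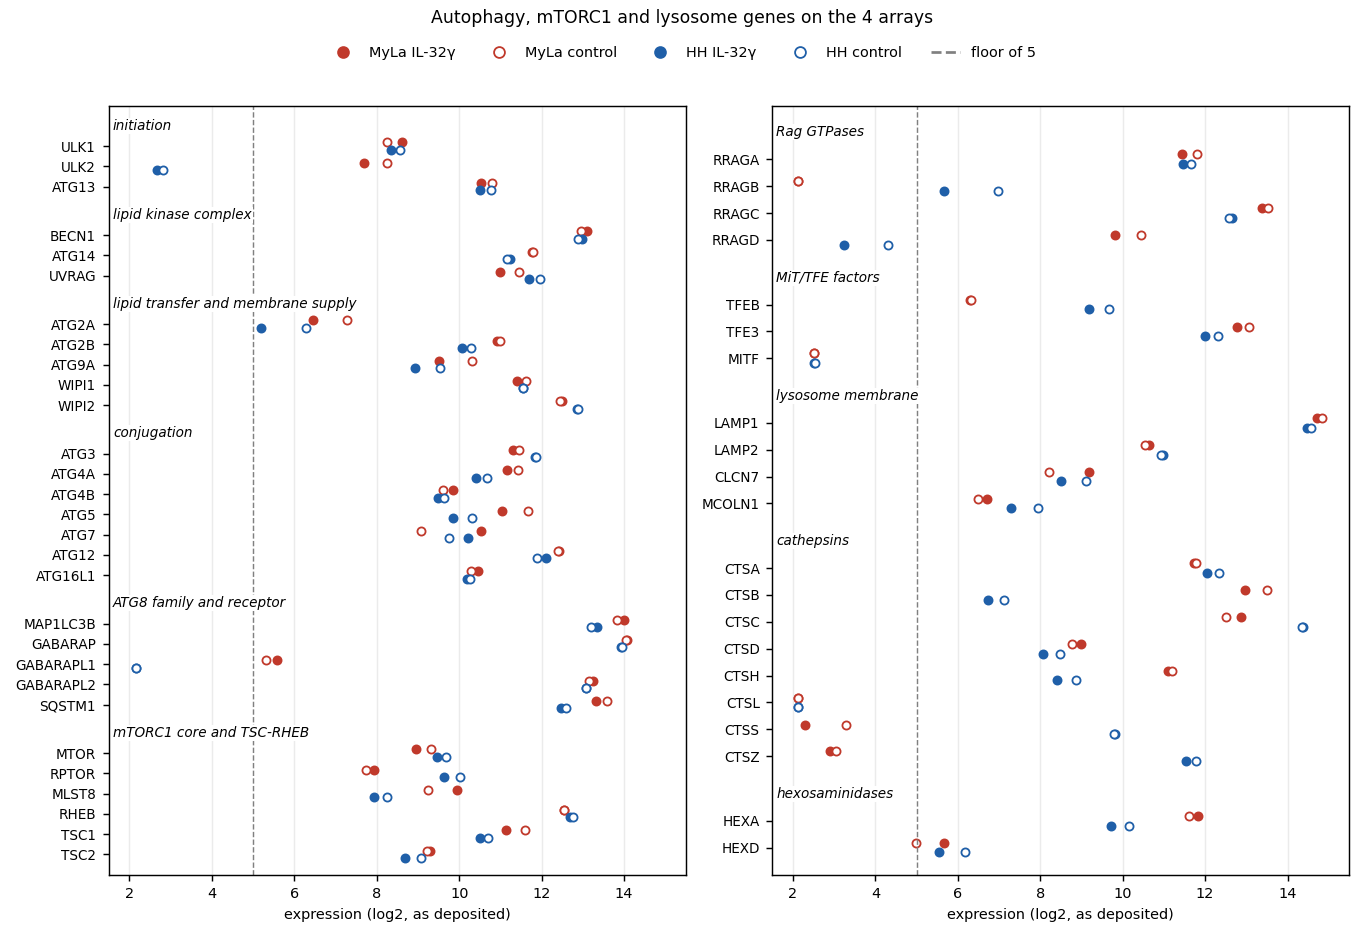
Log2 expression of the 50 genes on each array, grouped by role, with MyLa in red and HH in blue, IL-32γ filled and control open; the dashed line is the floor of 5. The 2 arrays of a line lie close together for most genes, while CTSB, RRAGD, ULK2, CTSS, CTSZ and TFEB separate the lines.

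MyLa and HH differed far more in these genes than either line did between IL-32γ and control. MyLa had more transcript of the protease gene CTSB, the Rag GTPase gene RRAGD and the autophagy kinase gene ULK2. HH had more of the protease genes CTSZ and CTSS and of the transcription factor gene TFEB. Taking each line's IL-32γ and control arrays as a pair of replicates, 7 of 48 tested genes (14.6%) were higher in MyLa, at an adjusted p under 0.05 (limma, Benjamini-Hochberg over 11010 genes) and 2-fold or more, against 19.0% of all genes tested. Another 7 (14.6%) were lower in MyLa, against 16.8% of all. The genes described here thus differed between the lines about as often as the rest of the array. The 2 arrays of a line differ in IL-32γ, so their spread holds any effect of it as well as noise, and each line is a single line of cells. For a gene below 5 in 1 line only a lower limit of the fold can be stated ("at least"), with values below 5 set to 5. The limma p-value printed beside such a limit comes from the deposited values, so it does not test the limit itself.

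**Figure D2:**
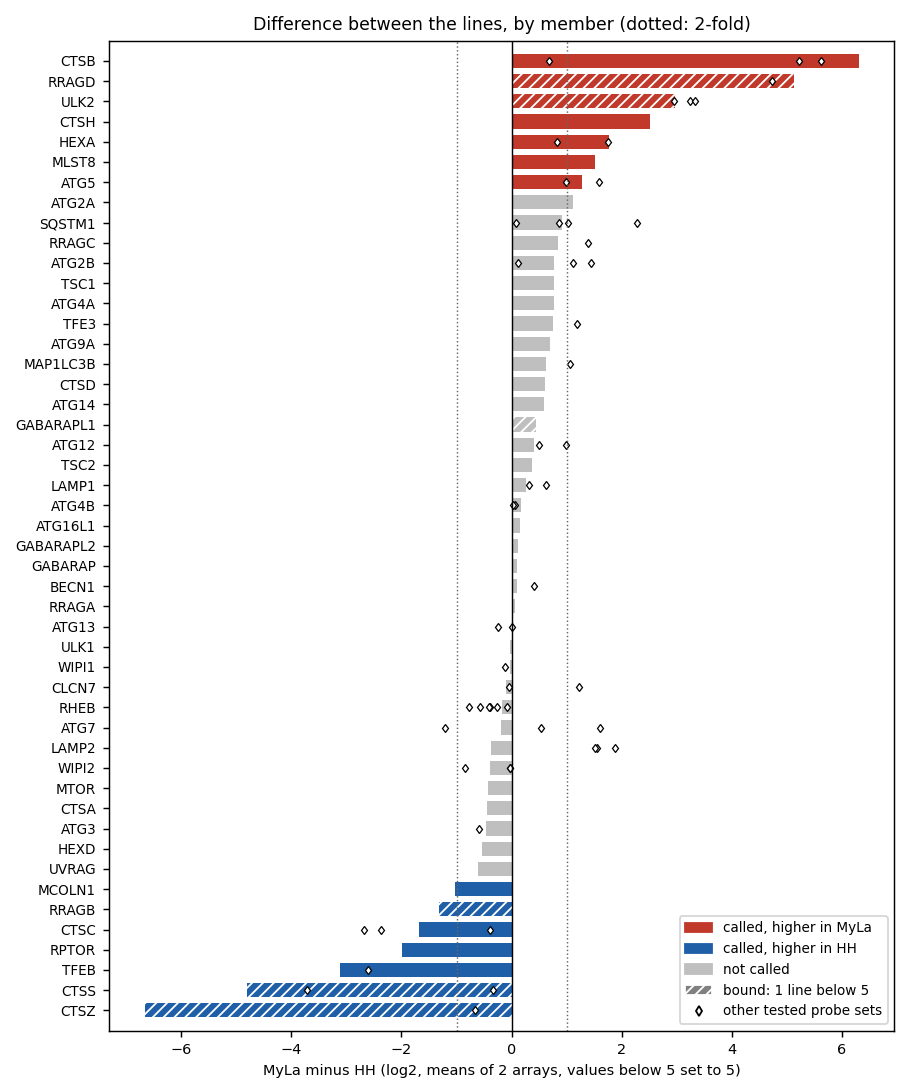
MyLa minus HH (log2, means of the 2 arrays of each line, values below 5 set to 5) for the 48 tested genes. Red and blue bars passed the test and 2-fold, hatched bars are bounds, and diamonds are the gene's other tested probe sets; CTSB reaches 6.30 on the MyLa side and CTSZ -6.67 on the HH side.

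Lysosomal proteases carried the widest contrast. CTSB, cathepsin B, a cysteine protease, read 12.96 with IL-32γ and 13.50 without in MyLa, against 6.74 and 7.12 in HH. It was 78.9-fold higher in MyLa (13.23 ± 0.38 against 6.93 ± 0.27, SD, n = 2 arrays each; limma adjusted p = 0.000238), and the lines did not come near each other on any array. A second CTSB probe set gave a log2 difference of 5.62 and another, below 5 in HH, at least 5.23. One more, weak in MyLa at 6.08 and 5.27 and below 5 in HH, allowed only a bound of 0.68.

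CTSZ, cathepsin Z (also called X), a carboxypeptidase abundant in immune cells, went the other way. It read 2.91 with IL-32γ and 3.05 without in MyLa, both below the floor, against 11.55 and 11.79 in HH, and so was at least 102-fold lower in MyLa (limma adjusted p = 2.58e-05). Its other probe set was also below 5 in MyLa and reached 5.84 and 5.49 in HH. CTSS, cathepsin S, which trims the invariant chain in antigen-presenting cells, read 2.29 and 3.29 in MyLa (IL-32γ, control), against 9.81 and 9.80 in HH. That is at least 27.9-fold lower in MyLa (limma adjusted p = 0.000515). All 3 CTSS probe sets were below 5 on both MyLa arrays and above it on both HH arrays.

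CTSC, cathepsin C, which activates granzymes in cytotoxic cells, was strong in both lines. It read 12.87 with IL-32γ and 12.51 without in MyLa, against 14.38 and 14.35 in HH, a 3.20-fold lower level in MyLa (limma adjusted p = 0.00273). Leaving out the HH IL-32γ array gave an adjusted p of 0.0601 and leaving out the HH control array 0.0571. Of its other probe sets, 2 stood at -2.38 and -2.68 (log2, MyLa minus HH) and the last at -0.40, so HH was the higher line on all 4. CTSH, cathepsin H, an aminopeptidase, read 11.09 and 11.19 in MyLa (IL-32γ, control), against 8.40 and 8.87 in HH, which is 5.68-fold higher in MyLa (limma adjusted p = 0.00157). The remaining measured proteases, the aspartic protease gene CTSD (log2 difference 0.61 ± 0.19 SE) and CTSA, which shields β-galactosidase and neuraminidase (-0.45 ± 0.15 SE), had limma adjusted p-values of 0.0612 and 0.0672 and were not called. Of the measured proteases, CTSS and CTSZ were the ones below 5 in 1 line, and the others were measured on all 4 arrays.

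HEXA, the α subunit of β-hexosaminidase, read 11.82 with IL-32γ and 11.61 without in MyLa, against 9.72 and 10.15 in HH. It was 3.43-fold higher in MyLa (limma adjusted p = 0.00388), and a second probe set stood at 1.75 without passing the fit over probe sets. HEXD, hexosaminidase D, was near the floor on every array and was not called (limma adjusted p = 0.259).

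Marker genes of other cell types also differed between the lines. Of 5 fibroblast markers, COL1A1 and COL3A1 were measured on both MyLa arrays, at 10.82 and 11.30 and at 13.16 and 13.16 (IL-32γ, control). COL3A1 was below 5 in HH and COL1A1 read 5.66 and 4.78 there, while COL1A2, DCN and LUM were below 5 on all 4 arrays. The list's summed log2 level, with the floor of 5, was 39.0 and 39.5 in MyLa and 25.7 and 25 in HH. Of 4 myeloid markers with a probe set, CD14, LYZ and CSF1R were below 5 on every array, and ITGAM was measured in MyLa alone (8.73 and 9.00), with sums of 23.7 and 24.0 in MyLa and 20.0 on both HH arrays. No B cell marker reached 5. Of 5 keratinocyte markers KRT10 alone did, on all 4 arrays, with sums of 31.5 to 31.7 in MyLa and 31.4 to 31.5 in HH. The part of such markers in the protease differences was not tested.

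The Rag GTPases work as pairs of RagA or RagB with RagC or RagD, and RRAGD and RRAGB differed between the lines in opposite directions. RRAGD read 9.80 with IL-32γ and 10.44 without in MyLa, against 3.23 and 4.31 in HH, below the floor. It was at least 34.8-fold higher in MyLa (limma adjusted p = 0.00121), and its second probe set, at 9.73 and 9.72 in MyLa and 2.37 on both HH arrays, gave at least 4.73 on the log2 scale. RRAGB was the reverse, at 2.13 on both MyLa arrays, against 5.67 (IL-32γ) and 6.98 (control) in HH. That is at least 2.51-fold lower in MyLa (limma adjusted p = 0.00419), but the call rests on few values. Without the HH control array the bound was -0.67 (log2), short of 2-fold, without either MyLa array the adjusted p was 0.0616 or 0.0628, and with values below 5 set to 5 before the fit it was 0.0864. RRAGB has a single probe set.

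The other members of the 2 Rag pairs were present in both lines. RRAGA gave 11.62 ± 0.26 in MyLa and 11.56 ± 0.14 in HH (SD, n = 2 arrays each), a log2 difference of 0.06 ± 0.18 (SE, limma adjusted p = 0.805). RRAGC was 0.85 ± 0.12 higher in MyLa (limma adjusted p = 0.00672), short of 2-fold, and its second probe set was past it at 1.39.

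In the mTORC1 complex itself, RPTOR, the scaffold raptor that brings substrates to the kinase, was lower in MyLa. It read 7.93 with IL-32γ and 7.74 without in MyLa, against 9.64 and 10.02 in HH, a 3.98-fold difference (limma adjusted p = 0.0023) on its only probe set. MLST8, which stabilises the kinase domain, was 2.84-fold higher in MyLa, with 9.95 and 9.24 there, against 7.93 and 8.25 in HH (limma adjusted p = 0.0182). That call was lost without the MyLa IL-32γ array (adjusted p = 0.0576), the HH IL-32γ array (0.158) or the HH control array (0.117). The kinase gene MTOR differed by -0.44 ± 0.18 (log2, SE, limma adjusted p = 0.113) and its activator RHEB by -0.17 ± 0.10 (adjusted p = 0.224), and neither was called. Of the tuberous sclerosis genes, which switch RHEB off, TSC1 was 0.77 ± 0.20 higher in MyLa (limma adjusted p = 0.0397), under 2-fold, and TSC2 stood at 0.38 ± 0.18 (adjusted p = 0.144).

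The transcription factors of this pathway also differed between the lines. TFEB read 6.30 with IL-32γ and 6.32 without in MyLa, against 9.18 and 9.67 in HH, and was 8.65-fold lower in MyLa (limma adjusted p = 0.000904). Its second probe set was below 5 in MyLa and at 7.26 and 7.96 in HH, a bound of -2.61 on the log2 scale. TFE3 was 0.76 ± 0.18 higher in MyLa (SE, limma adjusted p = 0.0313), under 2-fold on the probe set that stands for it and past 2-fold on the other (1.19). MyLa thus had the lower TFEB level and no lower TFE3 level.

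The core of the site these factors bind was looked for in the promoters of the genes, in windows of 250 bases before and 50 after a start site given by RefSeq (GRCh38.p14). Windows were given for 42 of the 50 genes, 51 windows in all, and CACGTG, which reads the same on both strands, was in the windows of 10 genes: ATG3, ATG14, CLCN7, CTSA, CTSD, LAMP1, MCOLN1, RRAGB, RRAGC and TSC2. Counted by window, it was in 10 of the 51 and in 7.26% of the 35116 windows of all genes. The 10-letter form has GT before this core and AC after it, and is also the same on both strands. It was in 2 of the 51 windows, those of MCOLN1 and RRAGB, and in 0.353% of all windows. The stretches just before the start site are shown for 5 of these genes. MCOLN1, CLCN7 and RRAGB are described below as lower with IL-32γ in HH by 1.5-fold or more, and CTSA and LAMP1 stood at -0.30 and -0.09 there. The others are not shown: CTSD and TSC2 (both -0.40 in HH), ATG3 (-0.02), ATG14 (0.06) and RRAGC (0.08). Each CACGTG is in capitals, and the stretches run 5′ to 3′ on the gene's strand.
MCOLN1, chr19:7522544-7522623, plus strand: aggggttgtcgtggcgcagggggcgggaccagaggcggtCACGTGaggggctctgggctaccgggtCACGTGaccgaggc
CLCN7, chr16:1475029-1475108, minus strand: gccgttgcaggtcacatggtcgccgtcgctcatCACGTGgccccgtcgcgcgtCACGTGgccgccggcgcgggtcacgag
RRAGB, chrX:55717619-55717748, plus strand: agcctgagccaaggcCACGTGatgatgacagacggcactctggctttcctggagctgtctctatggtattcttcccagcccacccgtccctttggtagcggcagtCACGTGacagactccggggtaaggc
CTSA, chr20:45891255-45891334, plus strand: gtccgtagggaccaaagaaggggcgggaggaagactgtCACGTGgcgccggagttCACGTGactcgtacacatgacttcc
LAMP1, chr13:113297039-113297238, plus strand: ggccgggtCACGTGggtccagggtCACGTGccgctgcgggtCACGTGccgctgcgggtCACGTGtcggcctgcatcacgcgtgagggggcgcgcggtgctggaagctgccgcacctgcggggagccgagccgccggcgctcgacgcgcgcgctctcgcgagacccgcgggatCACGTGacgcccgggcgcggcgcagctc
LAMP1 shows 5 copies, and MCOLN1, CLCN7, RRAGB and CTSA show 2 each. The whole windows hold 6 in LAMP1 and 3 in RRAGB. The last one in LAMP1 spans the start site, so only its first base is in the printed stretch, in lower case. The last one in RRAGB lies after the start site, outside the printed stretch. A match of letters is a description, not evidence of binding.

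The genes with this motif did not share a direction between the lines. MCOLN1 and RRAGB were lower in MyLa, as TFEB was. RRAGC (0.85 ± 0.12 SE, limma adjusted p = 0.00672) and ATG14 (0.59 ± 0.10 SE, adjusted p = 0.0128) were higher in MyLa at under 2-fold, and ATG3 lower (-0.47 ± 0.11 SE, adjusted p = 0.0291). LAMP1, CTSA, CTSD, CLCN7 and TSC2 had adjusted p-values from 0.0612 to 0.844.

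Among proteins of the lysosome membrane, MCOLN1, the calcium channel TRPML1, read 6.72 with IL-32γ and 6.49 without in MyLa, against 7.30 and 7.95 in HH. It was 2.03-fold lower in MyLa (limma adjusted p = 0.0387), just past both thresholds, and leaving out any array ended the call (adjusted p from 0.0527 to 0.200). LAMP1, the major membrane glycoprotein, read between 14.47 and 14.83 on the 4 arrays and differed by 0.26 ± 0.11 (log2, SE, adjusted p = 0.117). LAMP2, its relative, gave different answers by probe set. The brightest read 10.64 and 10.53 in MyLa (IL-32γ, control), against 10.97 and 10.93 in HH, a difference of -0.37 ± 0.11 (SE, limma adjusted p = 0.0496). The other 3 had differences of 1.88, 1.55 and 1.51, higher in MyLa, and all passed the fit over probe sets, and the mean of all 4 was 1.14 higher in MyLa (limma adjusted p = 0.0047). LAMP2 has splice forms that differ at the 3′ end, and where each probe set lies on the transcript is not given in the sources used here.

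CLCN7, the chloride-proton exchanger of the lysosome, also differed by probe set. The one that stands for the gene gave -0.11 ± 0.43 (SE, limma adjusted p = 0.844), while a second, at 8.89 and 8.64 in MyLa (IL-32γ, control) and 7.25 and 7.83 in HH, was 1.23 higher in MyLa.

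In the autophagy machinery, ULK2, one of the kinases that start the process, was measured in MyLa alone. It read 7.69 with IL-32γ and 8.25 without in MyLa, against 2.68 and 2.82 in HH, and was at least 7.85-fold higher in MyLa (limma adjusted p = 0.000301). All 4 ULK2 probe sets were below 5 on both HH arrays, with bounds of 2.95 to 3.32 on the log2 scale. Its paralog ULK1 read 8.60 and 8.25 in MyLa, against 8.35 and 8.55 in HH, and the difference was -0.03 ± 0.18 (SE, limma adjusted p = 0.911). Both kinase genes were thus measured in MyLa and ULK1 alone in HH.

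ATG5, a part of the conjugate that directs lipidation of the ATG8 proteins, read 11.05 with IL-32γ and 11.68 without in MyLa, against 9.85 and 10.32 in HH. It was 2.42-fold higher in MyLa (limma adjusted p = 0.0282). The call was lost on leaving out any array, with adjusted p-values from 0.0585 to 0.189, although the other 2 probe sets also stood at 0.99 and 1.58. ATG12, the other part of that conjugate, differed by 0.41 ± 0.13 (SE, limma adjusted p = 0.0556) and their partner ATG16L1 by 0.14 ± 0.12 (adjusted p = 0.378).

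ATG7, the activating enzyme of both conjugation systems, had probe sets called in opposite directions. The brightest gave -0.19 ± 0.56 (SE, limma adjusted p = 0.791). A second, at 8.35 and 8.36 in MyLa (IL-32γ, control) against 9.48 and 9.64 in HH, was lower in MyLa, with a log2 difference of -1.20. Another, at 6.52 and 6.68 in MyLa and below 5 in HH, was at least 1.60 higher there. No direction can be given for ATG7 between the lines.

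The ATG8 proteins, which coat the autophagosome and bind its cargo receptors, were strongly expressed in both lines except for 1. GABARAP differed by 0.11 ± 0.10 (log2, MyLa minus HH, SE) and GABARAPL2 by 0.11 ± 0.11, with limma adjusted p-values of 0.418 and 0.412. MAP1LC3B (LC3B) was 0.63 ± 0.13 higher in MyLa (adjusted p = 0.0206), short of 2-fold, and 1.06 on its other probe set. GABARAPL1 read 5.58 with IL-32γ and 5.30 without in MyLa, just above the floor, against 2.16 on both HH arrays. The cargo receptor gene SQSTM1 (p62) read 13.31 and 13.59 in MyLa, against 12.48 and 12.58 in HH, 0.92 ± 0.15 higher (SE, limma adjusted p = 0.0102) and just under 2-fold. A second SQSTM1 probe set was at 2.28.

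In all, 12 genes had an adjusted p under 0.05 but fell short of 2-fold with values below 5 set to 5. GABARAPL1 was among them, and its 1.36-fold is only a lower limit, since both HH arrays were below 5. With a floor of 4 it stood at 1.44 (log2), past 2-fold. Of the 12 genes, 9 were higher in MyLa and 3 lower, and 22 other genes had no adjusted p under 0.05. BECN1 (Beclin 1, of the lipid kinase complex), ATG13 (a partner of the ULK kinases), ATG4B (the protease that primes ATG8 proteins) and WIPI1 (which binds the lipid that complex makes) were among these 22, with differences of 0.09, 0.02, 0.16 and -0.03. A p above the threshold on 2 arrays a line does not show that levels were alike.

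Differences between IL-32γ and control within a line were smaller. In MyLa, 4 of 45 measured genes (8.89%) were 1.5-fold or more higher with IL-32γ, ATG7, MLST8, CLCN7 and HEXD, against 7.77% of all measured genes. Another 4 (8.89%) were as much lower, ATG2A, ATG9A, ATG5 and RRAGD, against 7.65%. These shares are near those of the array as a whole. The median over the 45 was -0.02 on the log2 scale (0.03 with each array centred on its median), and -0.07 over all 10497 genes measured in MyLa. In HH, 0 of 45 were higher by that much, against 1.14% of all, and 6 (13.3%) were lower, ATG2A, ATG9A, RRAGB, CLCN7, MCOLN1 and HEXD, against 4.46% of all. The HH median was -0.21, beside -0.07 over all 10307 genes, and 35 of 45 genes (77.8%) were below control, against 65.9% of all. The 5′ ACTB control probe set was higher with IL-32γ by 1.69 in MyLa and by 0.89 in HH, while its 3′ partner stood at -0.08 and -0.03. The 5′ GAPDH control stood at 0.68 in MyLa and 0.15 in HH, and its 3′ partner at 0.04 and 0.03. Between the lines, 5′ ACTB read 11.81 and 10.12 in MyLa (IL-32γ, control) and 13.58 and 12.69 in HH. The 3′ ACTB values lay between 15.07 and 15.27 on the 4 arrays. The part of transcript integrity or labelling in the differences with IL-32γ and between the lines was not tested.

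**Figure D3:**
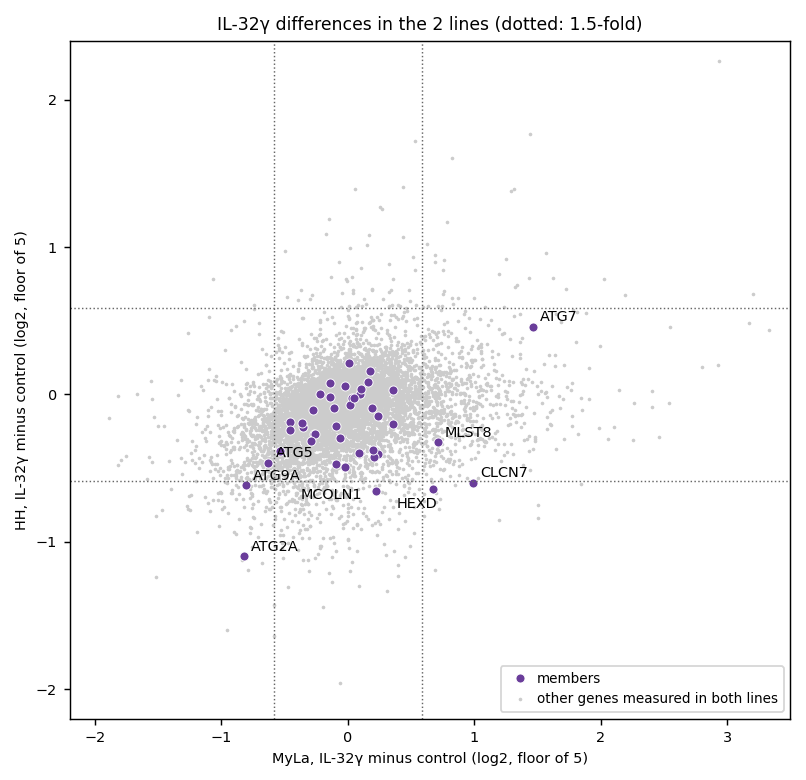
IL-32γ minus control (log2, values below 5 set to 5) in MyLa (x axis) and HH (y axis) for the genes measured in both lines, with the genes described here in purple and the rest in grey; dotted lines mark 1.5-fold. ATG2A and ATG9A lie below -0.58 on both axes, and CLCN7 and HEXD lie to the right of it in MyLa and below it in HH.

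Both genes that read 1.5-fold or more lower in both lines supply lipid to the growing autophagosome. ATG2A, a lipid transfer protein, read 6.45 with IL-32γ and 7.27 without in MyLa, and 5.19 with and 6.29 without in HH. The differences were -0.82 and -1.10, and the treated HH value is close to the floor. ATG9A, the scramblase carried on vesicles to the site, read 9.52 with IL-32γ and 10.32 without in MyLa, and 8.92 with and 9.53 without in HH, differences of -0.81 and -0.62. These were 2 of 42 genes measured in both lines (4.76%), against 0.911% of all genes, and 0 of the 42 were higher in both, against 0.356%. None was lower in MyLa and higher in HH by as much, against 0.0210% of all. At any size, 18 of 41 (43.9%) were below control in both lines, against 44.2% of all genes, and 6 (14.6%) above it in both, against 19.7%. ATG2A and ATG9A have 1 probe set each. With a floor of 6 ATG2A in HH stood at -0.29, and with each array centred on its median ATG9A in HH was at -0.55, inside 1.5-fold.

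Their closest partners read closer to control. ATG2B, the paralog of ATG2A, stood at -0.09 in MyLa and -0.21 in HH, with another probe set at -0.66 in MyLa and 0.02 in HH. WIPI1 stood at -0.22 and 0.00, and WIPI2 at 0.05 and -0.02. Other WIPI2 probe sets read differently, and the widest was 9.14 with IL-32γ and 7.44 without in MyLa and 9.46 with and 8.82 without in HH, a gap of 1.70 and 0.64.

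With the lines as replicates, none of the 48 tested genes passed an adjusted p of 0.05 for IL-32γ (limma with the line as a block, 1 residual degree of freedom), and none of 11010 did. At an unadjusted p under 0.05 there was 1 gene higher, ATG7 (2.08%, against 1.62% of all), and 5 lower, ATG2A, ATG9A, ATG5, RRAGD and CTSB (10.4%, against 7.87%). RRAGD was below 5 on both HH arrays, so its p rests on a response that was not measured in HH. ATG2A differed by -0.96 ± 0.13 (log2, SE; limma adjusted p = 0.522), lower in 2 of 2 lines. ATG9A differed by -0.71 ± 0.12 (adjusted p = 0.522), also in 2 of 2 lines. Neither held after correction for the number of genes.

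ATG5 read 11.05 with IL-32γ and 11.68 without in MyLa, and 9.85 with and 10.32 without in HH, differences of -0.63 and -0.46. Its other probe sets stood at 0.13 and -0.29 in MyLa and at -0.08 and -0.14 in HH, and the mean of all of them in MyLa was -0.26. ATG7 read higher on its brightest probe set, with 10.53 against 9.06 in MyLa (2.76-fold) and 10.21 against 9.75 in HH (1.37-fold), IL-32γ before control. A different ATG7 probe set was lower in MyLa, at 7.34 with IL-32γ and 8.32 without, and the remaining ones stood at -0.01 and -0.16. Averaged over its probe sets ATG7 differed by 0.08 in MyLa.

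ULK1 stood at 0.36 in MyLa and -0.20 in HH, and ULK2 in MyLa at -0.56. The ULK2 probe sets ranged from -1.47 to -0.04 in MyLa, all in the same direction. The lipid kinase genes BECN1 (0.16 and 0.09 in MyLa and HH), ATG14 (-0.02 and 0.06) and UVRAG (-0.46 and -0.24) were within 1.5-fold. So were the conjugation genes ATG3, ATG4A, ATG4B, ATG12 and ATG16L1, which lay between -0.26 and 0.24 in MyLa and between -0.27 and 0.21 in HH.

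By the probe set that stands for each gene, the ATG8 genes and SQSTM1 were within 1.5-fold with IL-32γ where measured. GABARAPL1, near the floor, stood at 0.27 in MyLa and was not measured in HH. MAP1LC3B read 13.99 with IL-32γ and 13.82 without in MyLa, and 13.35 with and 13.19 without in HH. GABARAP stood at 0.03 and -0.02 and GABARAPL2 at 0.09 and 0.00 (MyLa, HH). SQSTM1 stood at -0.28 in MyLa and -0.11 in HH, but its probe sets in MyLa ran from -0.49 to 0.85. Another bright SQSTM1 probe set read 11.67 with IL-32γ and 11.05 without in MyLa, so the direction and size there are uncertain.

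In the mTORC1 group MLST8 read 9.95 with IL-32γ and 9.24 without in MyLa (1.64-fold higher) and 7.93 with and 8.25 without in HH. RPTOR stood at 0.20 in MyLa and -0.38 in HH, and MTOR at -0.36 and -0.22. All 6 genes of the complex and its RHEB switch were below control in HH, from -0.40 (TSC2) to -0.07 (RHEB), none by 1.5-fold, where 65.9% of all genes measured in HH were below control. RHEB was at 0.00 there with each array centred on its median. RHEB had 7 measured probe sets, which ran from -0.25 to 0.60 in MyLa and from -0.37 to 0.72 in HH.

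RRAGB, in HH, gave the lowest difference of the 50 genes, at 5.67 with IL-32γ and 6.98 without (-1.30). RRAGD in MyLa stood at -0.64 on the brightest probe set and 0.00 on the other, which read 9.73 and 9.72. RRAGA stood at -0.36 and -0.19 and RRAGC at -0.15 and 0.08 (MyLa, HH). A second RRAGC probe set read 12.99 with IL-32γ and 13.63 without in MyLa (-0.64, past 1.5-fold) and stood at -0.21 in HH. TFEB in HH read 9.18 with IL-32γ and 9.67 without (-0.49), and its second probe set 7.26 and 7.96 (-0.70), while in MyLa it stood at -0.02. TFE3 stood at -0.30 and -0.31.

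In HH, MCOLN1, CLCN7 and HEXD were lower with IL-32γ by 1.5-fold or more. MCOLN1 read 7.30 with IL-32γ and 7.95 without (-0.66) in HH, and in MyLa 6.72 with and 6.49 without (0.22). CLCN7 was lower in HH, with 8.50 against 9.10 without IL-32γ, and higher in MyLa, with 9.19 against 8.20. Its second probe set stood at -0.58 in HH and 0.24 in MyLa, and the last at -0.16 in HH and 0.07 in MyLa. HEXD was near the floor, at 5.67 with IL-32γ and 4.98 without in MyLa (at least 1.59-fold higher) and 5.55 with and 6.18 without in HH. With each array centred on its median, 3 of the 6 HH genes stayed past 1.5-fold, ATG2A, RRAGB and MCOLN1. In that setting 3.28% of all genes measured in HH were lower by as much.

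By the probe set that stands for each gene, the protease genes lay within 1.5-fold of control in each line where they were measured. CTSB stood at -0.53 in MyLa and -0.38 in HH, CTSH at -0.09 and -0.47, CTSD at 0.23 and -0.40, CTSA at -0.06 and -0.30 and CTSC at 0.36 and 0.03. CTSS and CTSZ, measured in HH alone, stood at 0.01 and -0.24. Other probe sets went past it. CTSB probe sets in MyLa ran from -0.62 to 0.81, the extremes being the 2 weakest, and a CTSB probe set in HH stood at -0.59. A second CTSC probe set in MyLa read 11.51 with IL-32γ and 10.76 without (0.75). HEXA stood at 0.21 in MyLa and -0.42 in HH, with another probe set at -1.34 in MyLa, where it read 7.37 with IL-32γ and 8.71 without. LAMP1 stood at -0.11 and -0.09 and LAMP2 at 0.10 and 0.04. The other LAMP2 probe sets were lower in MyLa, at -0.50, -0.42 and -0.33, and stood at 0.12, -0.05 and -0.26 in HH. Other LAMP1 probe sets in MyLa stood at -0.12, 0.35 and 1.17, the last below 5 on the control array.

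Probe sets of a gene often disagreed on IL-32γ in MyLa. MyLa had 24 genes with at least a pair of measured probe sets. Of these, 14 had probe sets that differed by 1.5-fold or more in their response and 15 had probe sets on both sides of 0. The same shares over all genes were not taken, so these counts are not particular to the genes described here. The ranges of LAMP1 and HEXD rest on probe sets near the floor, at 6.17 and 4.21 and at 5.67 and 4.98 (IL-32γ, control). In HH these were 4 and 11 of 24. No gene with several measured probe sets had all of them past 1.5-fold in either line. Between the lines, where the differences were wider, 26 genes had 2 or more tested probe sets: all were called higher in MyLa for ULK2 and RRAGD, all lower for TFEB, and none was called for 9 genes.

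**Figure D4:**
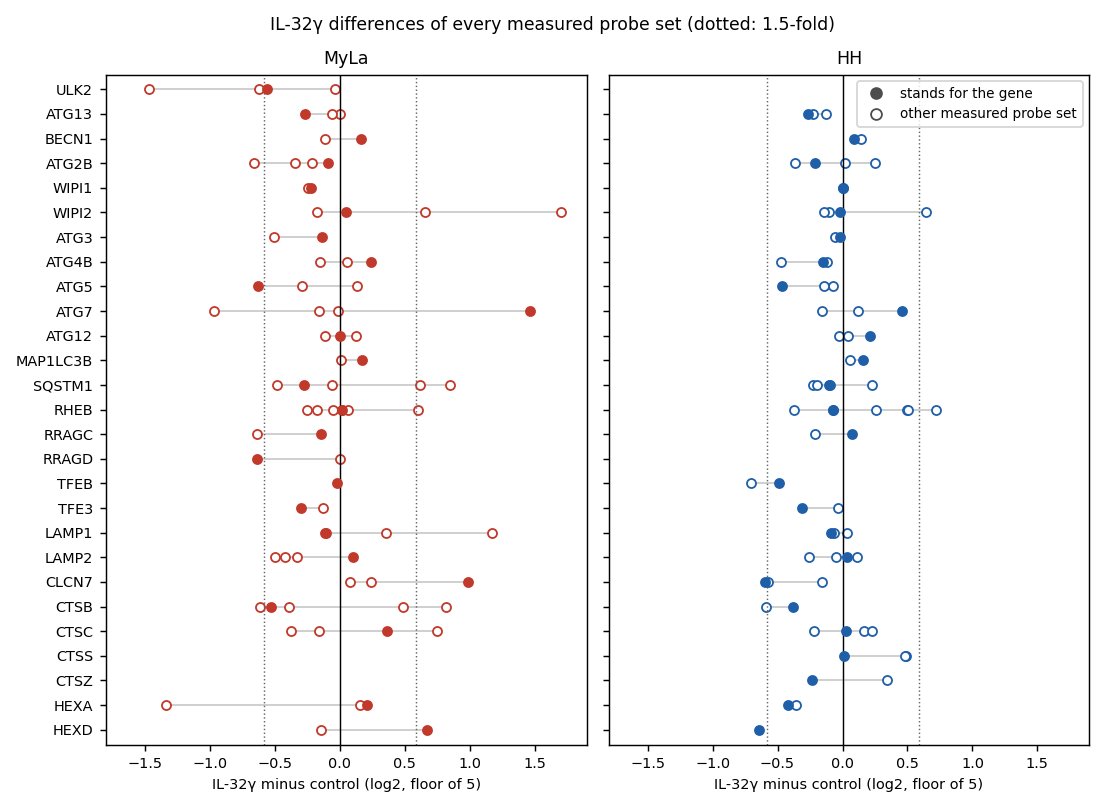
IL-32γ minus control (log2, values below 5 set to 5) for every measured probe set of the genes with 2 or more, MyLa on the left and HH on the right; filled points stand for the gene and dotted lines mark 1.5-fold. In MyLa the probe sets of ATG7 run from -0.97 to 1.46 and those of WIPI2 from -0.18 to 1.70, and in HH most genes lie closer together.

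Further genes of the same pathways were read from lists of other autophagy, mTORC1 and lysosome genes. Their counts stand against 7.77% of all genes higher and 7.65% lower with IL-32γ in MyLa, and 1.14% higher and 4.46% lower in HH. Of 40 other autophagy genes measured in MyLa, 1 (2.50%) was higher with IL-32γ by 1.5-fold, VMP1, a lipid scramblase (0.93, and 0.45 in HH), and 1 lower, NRBF2, of the lipid kinase complex (-0.66). In HH 1 of 40 (2.50%) was higher, the fusion protein SNAP29 (0.59, and 0.33 in MyLa), and 0 lower. Of 36 other mTORC1 pathway genes in MyLa 5 (13.9%) were higher, PRR5, NPRL3, AKT1, PDPK1 and RPS6KB2, an S6 kinase (1.27), and 0 lower, and in HH 0 of 37 passed either way. Of 55 other lysosome genes in MyLa, 2 (3.64%) were higher, MAN2B1 (0.66) and IGF2R (0.62), and 5 (9.09%) lower, with the protease LGMN lowest (-0.87). In HH 0 of 54 were higher and 3 (5.56%) lower, TPCN1 (-1.03), NAGLU (-0.77) and IDUA (-0.72). The medians in MyLa and HH were -0.14 and -0.10 for autophagy, -0.04 and -0.04 for mTORC1 and -0.11 and -0.11 for lysosome genes.

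Between the lines, where 19.0% of all genes were higher in MyLa and 16.8% lower, none of these lists passed either share. Of 55 other lysosome genes tested, 8 (14.5%) were higher in MyLa and 5 (9.09%) lower. SCARB2, the membrane protein LIMP-2 that carries glucocerebrosidase, read 2.13 on both MyLa arrays, against 10.97 with IL-32γ and 10.67 without in HH, at least 56.5-fold lower in MyLa (limma adjusted p = 2.74e-05). LGMN, the asparagine endopeptidase that activates cathepsins, was 27.5-fold lower in MyLa (adjusted p = 0.00107), with 5.67 and 6.54 there and 10.82 and 10.96 in HH. GALC, galactosylceramidase, was 7.18-fold higher in MyLa (adjusted p = 0.000325). Of 40 other autophagy genes, 7 (17.5%) were higher in MyLa and 3 (7.50%) lower, among them the fusion protein VAMP8 (26.2-fold lower, adjusted p = 9.65e-05) and the receptor OPTN (3.50-fold higher, adjusted p = 0.00142). Of 37 other mTORC1 genes, 6 (16.2%) were higher, with the amino acid stress sensor family gene SESN1 highest (14.3-fold, limma adjusted p = 0.00101), and 5 (13.5%) lower, among them DEPTOR, an inhibitor within the complex (2.68-fold, adjusted p = 0.00772).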

How the data were processed

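The authors deposited log2 expression values per probe set, made with GCRMA per the submitters' processing notes (background correction by probe sequence, normalisation, probe summary). No version is stated, nor whether the arrays were processed jointly, and the log2 scale was read from the values. Gene symbols of the platform annotation were brought up to date by Entrez identifier (41043 of 41097 probe sets with 1 symbol matched RefSeq). A probe set with several symbols was not named, which left out 1 that lists a gene described here.

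Within a line, values below 5 were set to 5 and IL-32γ minus control was taken where either array reached 5. limma 3.58.1 (R 4.3.3) was fitted to the deposited values of the 11010 genes that reached 5 on 2 arrays or more: for IL-32γ with the line as a block, and for MyLa against HH without a block (2 residual degrees of freedom). Tests were two-sided, with Benjamini-Hochberg adjustment over all genes. Nothing in the labels says that a line's arrays came from separate cultures of 1 condition. The fits were also run on simulated data with independent noise, which does not bear on whether the 2 arrays of a line can stand as replicates. The genes and lists were chosen with earlier results of these data known. All 50 genes are accounted for. Of the further lists, the highest and lowest responses and the widest differences between lines were named, and others are named where a count is small. Alternatives were other floors, normalisations, probe set choices, folds, fits and leaving out arrays. Python 3.11.15, pandas 2.3.3 and matplotlib 3.10.9 were used.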

Additional observations from a re-analysis of the deposited data

Results flagged for a closer look

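CLCN7 and HEXD passed 1.5-fold in opposite directions in the lines. For CLCN7, IL-32γ minus control was 0.99 (log2) in MyLa and -0.60 in HH. For HEXD it was 0.67 in MyLa, a bound since the control array was below 5, and -0.64 in HH. The pattern was 2 of 42 genes measured in both lines (4.76%), against 0.178% of all genes. The difference between the lines' responses was not tested, since 1 array per condition leaves no residual degree of freedom for it. As means of their probe sets both genes were within 1.5-fold in both lines, CLCN7 at 0.43 and -0.45 and HEXD at 0.26 and -0.32 (MyLa, HH).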

How the results depend on the processing

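Of 1253 values of single genes under the alternatives, 1171 kept their sign and their side of the threshold, 45 crossed it with the same sign and 37 changed sign. When probe sets were averaged, MyLa minus HH was 1.14 for LAMP2 (against -0.37), 0.19 for ATG7, 0.36 for CLCN7 and -0.074 for ATG13, and ATG13 was -0.026 with quantile normalisation and -0.029 with centring. HEXA with IL-32γ in MyLa was -1.34 without _s_at and _x_at probe sets (against 0.21). Leaving out an array, MyLa minus HH ran from -0.11 to 0.16 for ATG13, -0.92 to 0.54 for ATG7, -0.60 to 0.39 for CLCN7, -0.13 to 0.24 for RRAGA, -0.20 to 0.15 for ULK1 and -0.14 to 0.080 for WIPI1, none of which was called. The other 19 sign changes were differences with IL-32γ under 1.5-fold in both settings. Counts are given against 7 genes higher and 7 lower in MyLa than in HH. Without probe sets of the _s_at and _x_at kinds they were 3 higher and 4 lower, against 19.4% and 18.0% of all 8593 genes tested. Genes with such probe sets alone, among them ATG5, MLST8, RRAGD, CTSH, RRAGB and MCOLN1, dropped out there. With every tested probe set required they were 4 and 4. There a gene with 1 tested probe set, such as MLST8, CTSH, RPTOR, RRAGB or MCOLN1, passed by that probe set alone. With no fold minimum 16 were higher. Leaving out an array gave 5 to 6 higher and 4 to 5 lower, with 4 lower without the HH control array. For IL-32γ in MyLa, the 4 genes 1.5-fold higher became 1 when probe sets of a gene were averaged, against 8.16% of all genes. They became 1 at 2-fold and 0 with every measured probe set required. The 4 lower became 0 at 2-fold, 8 at 1.3-fold and 0 with every probe set required. That last rule counts only genes with 2 or more measured probe sets, so MLST8, ATG2A and ATG9A could not pass it. In HH, the 6 lower became 3 with arrays centred on their medians, against 3.28% of all genes. They became 2 at 2-fold, 13 at 1.3-fold and 0 with every probe set required. ATG2A, ATG9A, RRAGB and MCOLN1 have 1 probe set each and could not pass that rule. At 1.3-fold 1 was higher in HH. In both lines, the 2 lower became 1 with a floor of 6 (0.779% of all genes) and 1 with centring (0.608%). They became 0 at 2-fold, 4 at 1.3-fold and 0 with every probe set required. That rule leaves out ATG2A and ATG9A since they have 1 probe set each. At 1.3-fold 1 was higher in both lines. The share of all genes was not taken at other folds, with no fold minimum or with every probe set required. The count at an adjusted p under 0.05 for IL-32γ stayed at 0 under every alternative run. No gene of the array passed under the other floors, normalisations or probe set choices either, so the count could not move there. Where the construction does not show it, the cause was not tested. The IL-32γ fit could not be repeated without an array, since no residual degree of freedom is left. The IL-32γ fit already pairs treated with control by line, and its count was 0 without the line block too. No replicate block could be fitted, since every array is replicate 1 of its group. The fit with values below 5 set to 5 first was added after seeing the data. Values near 5 limit ATG2A, HEXD, RRAGB and GABARAPL1.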
